A study of Rattus norvegicus with 418 samples.

Results

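The 2 dichlorobenzene isomers compared here are 1,2-dichlorobenzene, with its pair of chlorine atoms on neighbouring carbons of the benzene ring, and 1,4-dichlorobenzene, with the pair on opposite carbons. Liver expression was compared at 1 matched dose, 150 mg/kg, at 6 and 24 h after dosing, in the 32 arrays of those dosed rats and of their own vehicle rats, out of 94 dichlorobenzene arrays in a series that covered 8 compounds. The series measured the livers of rats given 1 of these hepatotoxicants at a low, a medium or a high dose, and 150 mg/kg was the middle of the 3 doses of each isomer. The rats were chosen by compound, dose and time alone, and each of the 8 groups held 4 rats. At each time the groups were 1,2-dichlorobenzene at 150 mg/kg, its vehicle at 0 mg/kg, 1,4-dichlorobenzene at 150 mg/kg and its vehicle at 0 mg/kg. All rats, vehicle rats included, were F344/N males aged 10 to 12 weeks that had been fasted for 12 to 18 h before exposure by gavage in corn oil. Total RNA came from the left lateral lobe of the liver, and 1 array was hybridised per rat, so that replicates were separate animals. The dose was set by mass given, and the amount of either isomer that reached the liver was not measured here.

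Chlorinated benzenes are oxidised in hepatocytes by cytochromes P450 to reactive epoxides and, through phenols, to quinones, which are trapped by glutathione. Electrophiles that escape this trap modify the sensor protein KEAP1 and so release NRF2, a transcription factor that switches on glutathione synthesis, quinone reduction and antioxidant enzymes, while damaged proteins induce chaperones and the ATF4 arm of the stress response. In the rat, 1,2-dichlorobenzene is known as the stronger liver toxicant of the pair, with damage around the central veins.

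For each gene, the change with an isomer was the mean log2(signal + 16) of its 4 dosed rats minus that of its 4 vehicle rats, and the isomer difference was the change with 1,2- minus the change with 1,4-. A positive isomer difference therefore means higher with 1,2-. All 14217 genes were tested with limma in 1 fit of the 94 arrays, p values were adjusted by Benjamini-Hochberg over all genes, and a gene was called at an adjusted p under 0.05. A log2 change of 1 is a doubling of signal + 16. Errors after ± are standard errors, and a signed number in brackets after a gene is its isomer difference on this log2 scale. The isomers form 1 pair, compared at 2 times. Because whole liver was measured, fewer cells of a type and less RNA per cell cannot be told apart in any value below.

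Several arrays stood apart. Rat 3 of the 4 rats given 1,2- and killed at 6 h had a necrosis score of 0, while the other 3 scored 1. Over the 3053 genes called for 1,2- at 6 h without this rat, its own median change in the called direction was 0.24, against 0.68 for the other 3 rats, and 79.8% of those genes moved the same way in it. For each of the other 3 rats at 6 h, left out in the same way, that share was 96.8% to 98.0%, and at 24 h it was 95.6% to 97.5%. Values without rat 3 are given beside the 6 h results where they differed most. Among the 1,4- vehicle rats at 6 h, 2 arrays had only 5.31% and 7.98% of probe sets under a signal of 16, outside the range of 13.3% to 18.2% in the other 30 arrays. Albumin, the defining transcript of liver, had a lowest percentile of 99.88 among the genes tested over the 32 arrays, and the lowest correlation between arrays of a group was 0.951. For 1,2-, dosed and vehicle arrays were hybridised on the same day at each time. For 1,4- at 6 h, 2 of the 4 dosed arrays shared the day of their vehicle arrays, and at 24 h dosed and vehicle arrays shared no day.

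Necrosis scores, which the labels give for each rat, were above 0 only in rats given 1,2-. Rats given 1,2- scored 1, 1, 0 and 1 at 6 h and 3, 1, 2 and 2 at 24 h, while every rat given 1,4- and every vehicle rat scored 0. The mean was 0.75 ± 0.5 with 1,2- against 0 with 1,4- at 6 h (SD, n = 4 each, exact permutation test, two-sided, p = 0.143). At 24 h it was 2 ± 0.816 against 0 (SD, n = 4 each, exact permutation p = 0.0286, the smallest that 4 rats against 4 allow, and 0.0571 after adjustment over the 2 times).

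The isomers differed in 1308 genes at 6 h, 9.2% of the genes tested, of which 608 were higher and 700 lower with 1,2-. At 24 h they differed in 2164 genes, 15.2% of those tested, 1229 higher and 935 lower. The 1,2- isomer alone changed 2607 genes at 6 h (1183 higher and 1424 lower, 18.3% of genes) and 3945 at 24 h (2334 higher and 1611 lower, 27.7%). The 1,4- isomer changed 199 genes at 6 h (88 higher, 0.619% of genes, and 111 lower, 0.781%, in all 1.4%) and 6 at 24 h, all of them higher (0.0422%), with 0 lower by limma and 302 genes lower at an unadjusted p under 0.05. With every array centred on its median, which took up a median isomer difference of 0.11 over all genes at 24 h, the split of calls was 794 higher and 1154 lower for the isomer difference at 24 h, and 596 and 566 at 6 h. The same centring gave 1460 and 899 for 1,2- at 6 h, 1698 and 2037 for 1,2- at 24 h, and 208 and 94 for 1,4- at 6 h, so counts by direction over all genes depended on the scaling. After subtracting the vehicle means, the dosed rats of the isomers did not overlap in 21.3% of all genes at 6 h and 30.6% at 24 h. For the genes picked by size, this lack of overlap was required by the naming rule, so it is no further support. For the other single genes below these shares are the base. Without rat 3 the isomer difference at 6 h held 1957 genes. Without the 2 vehicle arrays with few dim probe sets it held 692, and 1,4- changed 23 genes instead of 199.

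**Figure D1:**
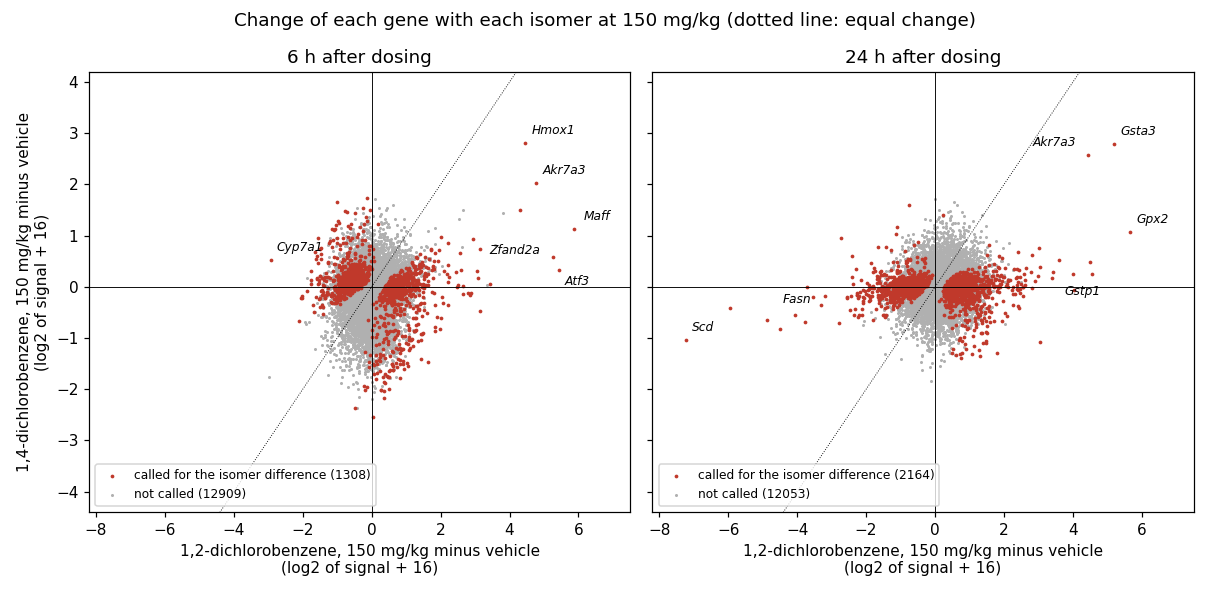
Change of each of 14217 genes with 1,2-dichlorobenzene (x axis) and with 1,4-dichlorobenzene (y axis) at 150 mg/kg against their own vehicle rats, in log2(signal + 16), at 6 h (left) and 24 h (right). Red points are the 1308 and 2164 genes called for the isomer difference. The points at 24 h spread along the x axis, from Scd at -7.24 to Gpx2 at 5.67, with little spread along the y axis.

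At 6 h, 1028 of the 1308 genes (78.6%) were called for 1,2- and not for 1,4- against vehicle, 171 (13.1%) for neither alone, 91 (6.96%) for 1,4- only, 14 for both in the same direction and 4 for both in opposite directions. All 14 genes that rose with both isomers rose more with 1,2-, and they included Hmox1, Akr7a3, Srxn1, Txnrd1 and Pir, a redox-sensitive iron-binding protein whose difference was 1.04. The 4 opposite ones were Adam11 (-2.20), Gse1 (2.12), Cux1 (-1.23) and the mitochondrial ribosomal protein Mrps17 (-0.54). The genes called for 1,4- only were led by Smim38 (-2.65), Cdk5r2 (2.60), Matk (2.29), Adam22 (2.29) and Cimap1b (1.89), for which 1,4- changes lay between -2.55 and 1.66. These genes sit in the contrast that holds the 2 vehicle arrays with few dim probe sets. Without those arrays Smim38 was still called, but Cdk5r2 (adjusted p = 0.128), Matk (0.0678), Adam22 (0.176) and Cimap1b (0.0999) were not. Gse1 also lost its call without them (0.0720). At 24 h, 2093 of the 2164 genes (96.7%) were called for 1,2- and not for 1,4-, 68 for neither alone, 2 for both (Akr7a3 and Gsta3) and 1 for 1,4- only (Ucn).

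Among the largest isomer differences at 6 h were stress-induced transcripts that rose with 1,2-. Zfand2a, an arsenite-inducible protein that helps the proteasome, had signals of 21086, 13819, 3079 and 21070.0 in rats given 1,2-, against 314, 280.2, 204 and 382 in their vehicle rats. With 1,4- it had 357, 774, 416 and 639, against 303, 338, 425 and 313 in vehicle rats. All 4 rats given 1,2- were far above every other rat, rat 3 least so, and the 1,4- rats overlapped their vehicle rats. The isomer difference was 4.68 ± 0.70 (SE, adjusted p = 5.30e-06), or 5.33 without rat 3. Pvr, an adhesion receptor of the cell surface, had 2453, 1201, 134 and 2078 with 1,2- against 91.2, 74.2, 126 and 92.7 in vehicle rats, and 117, 163, 102 and 94.8 with 1,4- against 148, 210.3, 201 and 129. Here rat 3 lay at the level of vehicle rats, and the difference was 3.63 ± 0.61 (adjusted p = 3.49e-05), or 4.54 without rat 3.

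Immediate early genes encode transcription factors that are switched on within minutes to hours of injury. Of 20 measured, 14 rose with 1,2-, where 8.32% of all genes did, against 0 with 1,4- by limma (4 higher at an unadjusted p under 0.05), and 8 were higher with 1,2- in the isomer difference, where 4.28% of all genes were. The list's median isomer difference was 1.09, against 0.01 for all genes, and 11 of 20 were called without rat 3. Atf3, a repressor that marks cell stress, had 9834, 6819.7, 73.4 and 12700.5 with 1,2- against 38.3, 43.5, 97.9 and 43.3 in vehicle rats. With 1,4- it had 109, 96.1, 137 and 12.5 against 92.5, 18.1, 84.6 and 50.3. With 1,2- the values were far above all others in 3 rats, and that of rat 3 was lower than the highest vehicle value, so the groups overlapped. Its difference was 5.11 ± 1.13 (adjusted p = 0.00138) with rat 3 and 6.79 without it. Maff, a small partner of NRF2-type factors, had 6207, 5730.3, 61.5 and 7675 with 1,2-, and 98.1, 55.5, 124 and 78.1 with 1,4-, with vehicle values from 7.17 to 84.0 and from 14.2 to 64.1. It showed the same gap in rat 3, and its difference was 4.75 ± 1.00 (adjusted p = 0.000829), or 6.35 without that rat. Egr1, a growth and injury response factor, had 8116, 4980.2, 898 and 13721 with 1,2-, where the vehicle rats ran from 224 to 729, and 207 to 437 with 1,4-, where they ran from 257 to 481. The Egr1 groups did not overlap, with a difference of 3.39 ± 0.77 (adjusted p = 0.00182), or 4.18 without rat 3. Jun, a subunit of AP-1, differed by 2.47 (adjusted p = 0.00236), or 3.19 without rat 3. Fos, its partner, differed by 2.82 on the brighter of its 2 probe sets and by 0.41 on the other. Myc changed by 3.81 with 1,2- and 1.44 with 1,4-, a difference of 2.37 that missed the threshold (adjusted p = 0.0537, 95% interval 0.73 to 4.00). Fosb, Junb, Nr4a1 and Dusp1 gave no call at 6 h in either isomer.

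The targets of ATF4 supply amino acids and control cell death under stress. Of 29 genes in the list of endoplasmic reticulum stress and ATF4 targets, 14 rose and 2 fell with 1,2-, 0 passed with 1,4- (2 higher and 2 lower at an unadjusted p under 0.05), and 11 were higher with 1,2- in the difference. The median difference was 0.76. Leaving out rat 3 gave 13, and leaving out the 2 vehicle arrays with few dim probe sets gave 7, as did keeping only the 1,4- rats of the shared hybridisation day. Trib3, a pseudokinase that feeds back on ATF4, had 6494, 4354, 1509 and 5875 with 1,2- against 323, 618, 648 and 281 in vehicle rats, and 930.0, 618, 624 and 515 with 1,4- against 378, 344, 368 and 469. All rats given 1,2- were above all others, and the difference was 2.40 ± 0.40 (adjusted p = 3.37e-05), or 2.87 without rat 3. Ddit3, the death-promoting factor CHOP, had 5874, 3616, 401 and 5919 with 1,2- against 494 to 688 in vehicle rats, and 383 to 422 with 1,4- against 421 to 734. Rat 3 did not exceed its vehicle rats, and the difference was 2.56 ± 0.52 (adjusted p = 0.000543), or 3.46 without it. The hormones Gdf15 (2.89) and Fgf21 (2.00), the serine synthesis enzyme Psat1 (1.96), asparagine synthetase Asns (1.31) and the amino acid transporter subunit Slc3a2 (1.23) were also higher with 1,2-. Of the folding arm, the co-chaperone Dnajb9 was higher (1.2), while the main chaperone Hspa5 differed by 0.02 (95% interval -0.27 to 0.30), and Hsp90b1 (-0.19), Calr (-0.12) and the factor Xbp1 (0.06) were not called. Among cytosolic heat shock genes 11 of 13 rose with 1,2-, 0 with 1,4- (3 higher at an unadjusted p under 0.05) and 4 called in the difference, or 6 without rat 3. The small heat shock protein Hspb8 differed by 1.38 and the co-chaperone Bag3 by 1.11.

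**Figure D2:**
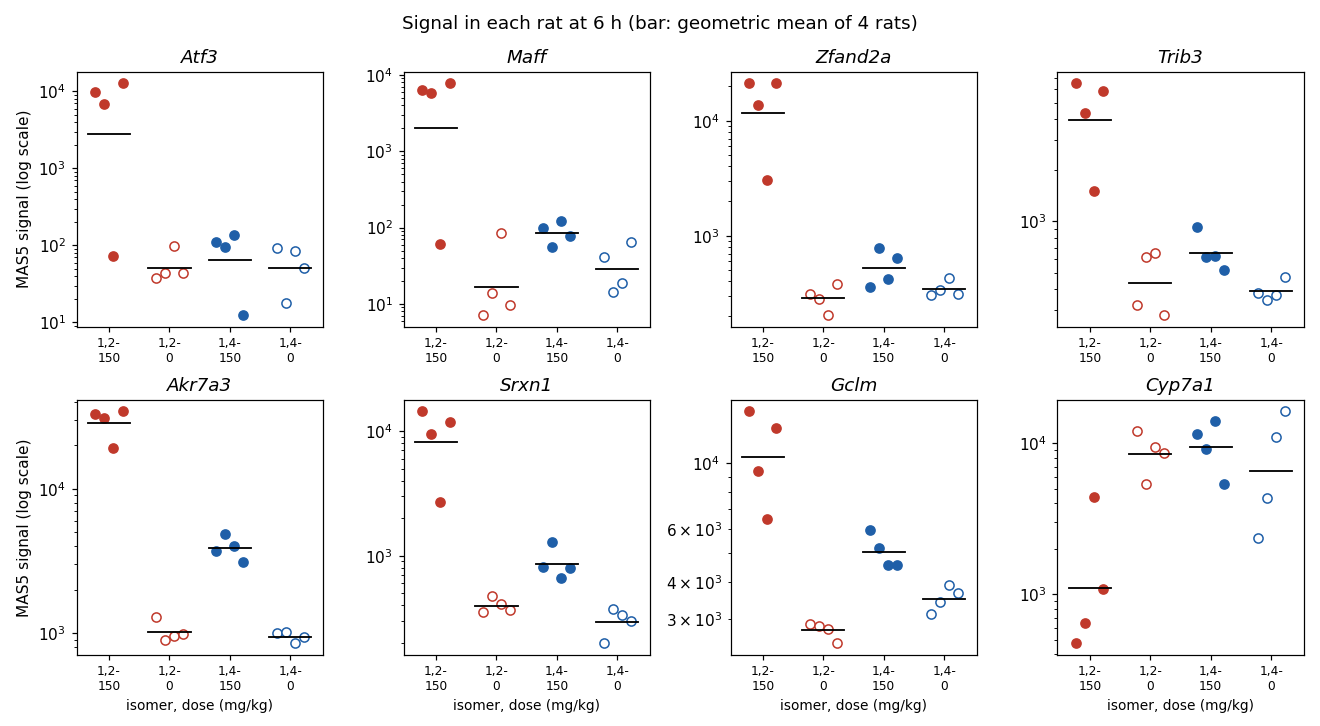
MAS5 signal of 8 genes in each rat at 6 h on a log scale, for rats given 150 mg/kg (filled) and vehicle (open) of 1,2- (red) and 1,4-dichlorobenzene (blue). Bars are geometric means of 4 rats. One rat given 1,2- lies near the vehicle rats for Atf3, where it had 73.4, but not for Akr7a3, where it had 19143.

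Of the NRF2 targets most rose with 1,2- at 6 h and some with 1,4-. Of 18 measured, 16 rose with 1,2- (median change 1.55) and 5 with 1,4- (median 0.31), and 11 were higher with 1,2- in the difference (median 1.23), a count that was the same without rat 3. By limma 0 members were lower with 1,2-, also at an unadjusted p under 0.05 (0). The 5 that rose with 1,4- were Hmox1, Akr7a3, Srxn1, Txnrd1 and Gclc, the catalytic subunit of glutathione synthesis, and 3 of 18 were called when the 2 vehicle arrays with few dim probe sets were left out. Akr7a3, an aldehyde reductase that clears reactive dialdehydes, had 32875, 30803, 19143 and 34407 with 1,2- against 1304, 893, 956 and 991 in vehicle rats. With 1,4- it had 3725, 4865, 4039 and 3138 against 994, 1015, 854 and 936. Both isomers lifted it in all 4 rats, and every rat given 1,2- was above every rat given 1,4-. The changes were 4.78 and 2.02, and the difference was 2.76 ± 0.53 (adjusted p = 0.000242). Srxn1, which repairs oxidised peroxiredoxins, had 14371, 9413, 2699 and 11841 with 1,2- against 355, 470.3, 406 and 367, and 809, 1291, 667 and 799 with 1,4- against 199, 372, 335 and 300.3. It showed the same order with no overlap, and the difference was 2.79 ± 0.52 (adjusted p = 0.000147). Without rat 3 the differences were 2.95 for Akr7a3 and 3.32 for Srxn1.

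Hmox1, which degrades heme and is among the most inducible stress genes, was the member with the largest change under 1,4-. It had 42471, 34221, 4436 and 38344 with 1,2- against 994, 657, 1089 and 1419.7 in vehicle rats, and 4284, 8619, 2043 and 5835 with 1,4- against 732, 646, 585 and 607. Rat 3 lay inside the range of the 1,4- rats. The changes were 4.45 and 2.81, and the difference of 1.64 ± 0.56 (adjusted p = 0.0467, 95% interval 0.54 to 2.75) lay just inside the threshold. That call was lost under many alternatives, among them a pseudocount of 1 (adjusted p = 0.0509) and hybridisation day as a fixed block (1.12, adjusted p = 0.284). Quantile normalization (0.0923), a fit of only the 4 groups of the time (0.224) and a fit of the whole series (0.139) lost it too. So did leaving out any 1 of the 1,4- vehicle rats, or of the 1,2- dosed rats other than rat 3 (adjusted p = 0.0548 to 0.159). Without rat 3 the difference was 2.42 (adjusted p = 0.000206). Txnrd1, which keeps thioredoxin reduced, had 4919 to 11504 with 1,2- against 1674 to 2032 in vehicle rats, and 3405 to 3920 with 1,4- against 1688 to 2288. Its difference was 1.36 ± 0.22 (adjusted p = 1.96e-05). Gclm, the regulatory subunit of glutathione synthesis, had 14858, 9397, 6513 and 13116 with 1,2- against 2889.7, 2844, 2793 and 2498, and 5969.5, 5177, 4562 and 4545 with 1,4- against 3125, 3419, 3909 and 3669. Both sets of dosed rats lay above their vehicle rats, but only the 1,2- change was called, and the difference was 1.40 ± 0.24 (adjusted p = 6.12e-05). Gpx2 (1.21, 95% interval -0.17 to 2.58) and Nqo1 (0.65, 95% interval 0.04 to 1.26) were not called for the isomers at 6 h, and both intervals leave room for a difference of over 1. The detoxifying enzymes Ephx1, microsomal epoxide hydrolase (0.98), and Ugdh, which makes the sugar donor for glucuronides (0.76), rose with both isomers and more with 1,2-.

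The antioxidant response element, the DNA site that NRF2 binds with a small MAF partner, has the core TGACNNNGC. RefSeq promoters of build GRCr8, which run from 250 bases before to 50 after the gene start, were given for 16 of the 18 NRF2-list genes. The core was found on either strand in 3 of the 16, and in 12.1% of all promoters of that length (4038). The 3 windows are shown because their genes, Gclm, Me1 and Gpx2, differed between the isomers in separate ways over time. Each reads 5′ to 3′ on the strand of the gene, with the core, or its reverse complement where the match was on the opposite strand, in capitals. They lie at chr2:213031938-213031996 (plus strand gene, match on the opposite strand), chr8:96540378-96540436 (minus strand gene, match on the gene's strand) and chr6:101230013-101230071 (minus strand gene, match on the opposite strand), with the first base of the match at -172, -167 and -13 from the gene start.
Gclm: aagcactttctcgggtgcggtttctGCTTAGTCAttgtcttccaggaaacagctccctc
Me1: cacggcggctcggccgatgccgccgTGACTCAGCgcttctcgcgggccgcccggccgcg
Gpx2: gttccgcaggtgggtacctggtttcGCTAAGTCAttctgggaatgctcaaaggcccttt
A match describes letters only, and nothing here measured binding. The xenobiotic response element core GCGTG, the site of the aryl hydrocarbon receptor, was in 9 of the same 16 promoters and in 29.7% of all promoters, and a GCGTG match can overlap the last letters of the NRF2 core.

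Some genes of bile acid handling and most of cholesterol synthesis fell with 1,2- at 6 h. Of 22 genes of bile acid synthesis and transport, 6 fell and 1 rose with 1,2-, 0 passed with 1,4- by limma (1 higher and 1 lower at an unadjusted p under 0.05), and 3 were lower and 1 higher in the difference. Cyp7a1, the cholesterol 7α-hydroxylase that sets the pace at which bile acids are made, had 474, 644, 4412 and 1089 with 1,2- against 12027, 5366, 9511 and 8695 in vehicle rats. With 1,4- it had 11608, 9211, 13972 and 5401 against 2355, 4365, 11096 and 16269.7. It was low in the rats given 1,2-, rat 3 being closest to its vehicle rats, and the 1,4- rats overlapped theirs. The difference was -3.46 ± 0.68 (adjusted p = 0.000371), the largest fall that the naming rule picked at this time, and -4.12 without rat 3. Fgfr4, the receptor through which gut signals repress that enzyme, differed by -1.25 and the bile acid conjugating enzyme Baat by -0.89, while the canalicular pump Abcc2 was higher with 1,2- (0.73). Of 21 cholesterol genes, 15 fell and 1 rose with 1,2-, 0 passed with 1,4- (4 lower at an unadjusted p under 0.05), and 5 were lower and 1 higher in the difference, against 4.92% of all genes that were lower. In the difference, 3 were lower with day as a fixed block, 2 with the 1,4- rats of the shared day alone, and 1 without the 2 vehicle arrays with few dim probe sets. Fdft1, squalene synthase, had 552, 446, 478 and 449 with 1,2- against 2859, 1242, 1913 and 2342, and 2349.6, 3075, 4127 and 2996 with 1,4- against 2543, 3805, 3861 and 4477. All 4 rats given 1,2-, rat 3 included, lay below every other rat, and the difference was -1.80 ± 0.33 (adjusted p = 0.000121). Insig2, which holds the sterol sensor in the endoplasmic reticulum, was the member that rose (1.54). Srebf1, the driver of fatty acid synthesis (-1.76), and the desaturase Fads1 (-1.82) were lower with 1,2-, and Plin2, which coats lipid droplets, was higher (1.40). Scd differed by 0.02 at this time (95% interval -1.36 to 1.40).

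Among other genes picked by size at 6 h, the amino acid transporter Slc1a4 (3.02), the aldose reductase relative Akr1b8 (2.92), the replication inhibitor Gmnn (2.86) and Ddit4l, an inhibitor of growth signalling (2.69), were higher with 1,2-. Smim38, Evi5l (-2.50), the ribosomal protein relative Rpl26l1 (-2.25), Adam11, Nbas (-2.20), Elmod3 (-2.17), the calcineurin subunit Ppp3cc (-2.17), Ints3 (-2.10) and Ppp1r16a (-2.09) were lower. For Ppp3cc the other probe set gave 0.35, for Elmod3 it gave -0.75 and for Ppp1r16a -0.52. Each of these 9 lower genes lost its call under 1 or more of the alternatives run, and Cyp7a1 under none. Of the higher ones, Slc1a4 (1.82, adjusted p = 0.196) and Gmnn (1.58, adjusted p = 0.297) lost theirs with the 1,4- rats at 15 mg/kg as the reference, and Gmnn (adjusted p = 0.0591) and Ddit4l (adjusted p = 0.0738) without the 2 vehicle arrays with few dim probe sets. Damage-response genes driven by p53 moved in both directions, with 5 of 16 higher and 2 lower with 1,2- in the difference, among them the p53 regulator Mdm2 (1.01), the nuclease Aen (1.12) and the autophagy gene Tp53inp1 (2.07) on the higher side and Fas (-1.45) and Ddb2 (-1.07) on the lower. Around the central vein, glutamine synthetase Glul (-1.26) and the glutamate transporter Slc1a2 (-1.94) were the 2 of 12 pericentral genes that were lower, against 4 of 12 without rat 3. Slc1a2 lost its call without the 2 vehicle arrays with few dim probe sets (-1.61, adjusted p = 0.166).

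**Figure D3:**
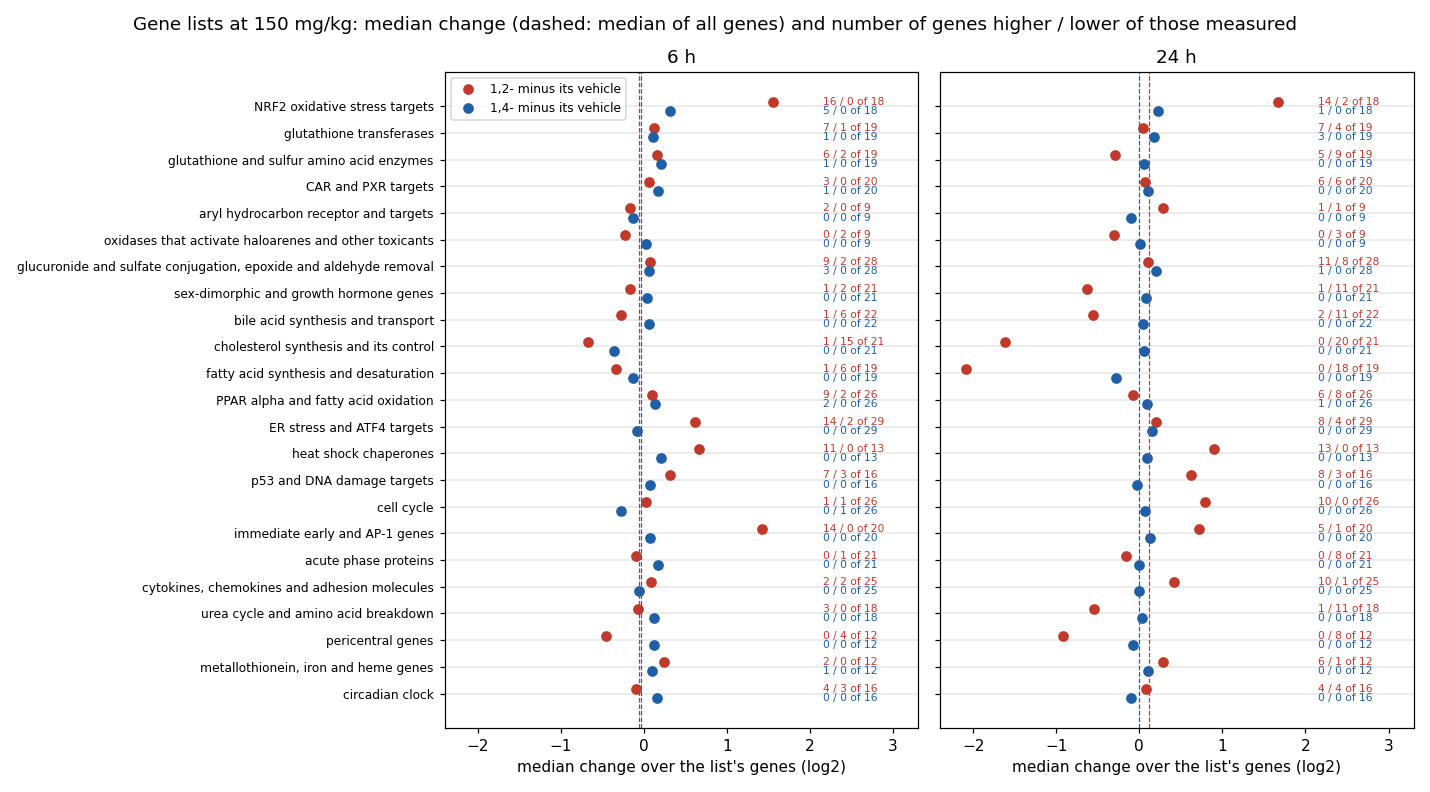
Median change of the measured genes of each list with 1,2- (red) and 1,4-dichlorobenzene (blue) at 150 mg/kg against vehicle, in log2(signal + 16), at 6 h (left) and 24 h (right), with the number of genes called higher / lower of those measured. Dashed lines are medians of all genes. Cholesterol synthesis stood at -1.62 with 1,2- and 0.06 with 1,4- at 24 h, and NRF2 targets at 1.66 and 0.23.

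At 24 h the genes called for 1,4- were few enough to name. The 6 were Akr7a3, the glutathione transferases Gsta3, Gstt3 and Gstm1, the fatty acid oxidation enzyme Eci1 and Ucn, a stress peptide that was called for 1,4- (1.40) but not for 1,2- (0.23), with an isomer difference of -1.17 (adjusted p = 0.0498). With hybridisation day as a fixed block 0 genes were called for 1,4- at 24 h by limma (482 at an unadjusted p under 0.05), and no day held both dosed and vehicle arrays of that contrast. For 3 of the 6 both isomers gave near equal changes, 1.10 with 1,2- and 1.29 with 1,4- for Gstt3 (difference -0.20, 95% interval -0.85 to 0.46), 0.75 and 0.63 for Gstm1 (0.12, -0.18 to 0.43) and 0.80 and 0.73 for Eci1 (0.06, -0.31 to 0.44). Their intervals leave no room for a doubling either way. Akr7a3 had 30098, 42049.5, 33189 and 38573 with 1,2- against 1016, 1672, 1971 and 2177 in vehicle rats, and 9117, 13367, 7931 and 15015 with 1,4- against 2219.6, 1881, 1757 and 1551. It rose with both and more with 1,2- (1.86, adjusted p = 0.00835). Gsta3, an alpha class transferase, had 4355, 5173, 5816 and 4174 with 1,2- against 56.7, 123, 368 and 63.8, and 1005, 1665, 789 and 1030.0 with 1,4- against 297, 182, 116 and 63.3. It followed the same order without overlap, with changes of 5.19 and 2.78 and a difference of 2.41 (adjusted p = 0.00903). Probe sets of the Gst, Ugt2b and Cyp2c families may also bind near-identical relatives, so each value may hold signal of more than 1 gene.

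NRF2 targets were again mostly higher with 1,2-, and Gstp1 and Ugt2b7, described beside them here, belong to other lists. Of 18, 14 rose and 2 fell with 1,2- at 24 h, where 16.4% of all genes rose, with 1,4- only Akr7a3 rose, and 13 were higher and 1 lower in the difference (median 1.43, against 0.11 for all genes, of which 8.64% were higher). Gpx2, a glutathione peroxidase usually confined to the gut, had 4603, 5172, 4595 and 4791 with 1,2- against 3.18, 138, 133 and 163 in vehicle rats. With 1,4- it had 397, 336, 150.3 and 182 against 202, 64.8, 113 and 90.2. The 1,2- rats lay tightly together above all others, the 1,4- rats overlapped their vehicle rats, and the difference was 4.59 ± 0.69 (adjusted p = 4.25e-07). Gstp1, a transferase that healthy rat hepatocytes hold little of, had 9639, 16374, 11463 and 12536 with 1,2- against 833, 703, 814 and 651, and 821, 952, 905 and 1032 with 1,4- against 686, 693, 854 and 861. The difference was 3.75 ± 0.40 (adjusted p = 4.45e-11), with no overlap. Akr1b8 had 2303, 2458, 2245 and 2682 with 1,2- against 93.4, 159.8, 136 and 154, and 138, 171, 139 and 169.8 with 1,4- against 121, 161, 169 and 206. Its 1,4- rats sat within the range of vehicle rats, and the difference was 4.09 ± 0.62 (adjusted p = 5.38e-07). Cbr1, which reduces quinones and other carbonyls, had 2820 to 3195 with 1,2- against 361 to 446, and 475 to 588 with 1,4- against 376 to 495, a difference of 2.50 (adjusted p = 2.66e-11). Ugt2b7, a glucuronosyltransferase, had 616 to 1517 with 1,2- against 22.6 to 34.2, and 49.2 to 91.0 with 1,4- against 44.1 to 68.9, a difference of 4.30 (adjusted p = 2.79e-07). Nqo1, a quinone reductase (1.72), and the basolateral conjugate exporter Abcc3 (2.74) were also higher with 1,2-. Other transferases ran the other way. Gstm7 (-1.77), Mgst3 (-1.31) and Gstz1 (-1.17) were lower with 1,2-, so that 2 of 19 transferases were higher and 5 lower, or 2 and 3 with hybridisation day as a fixed block.

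Me1, malic enzyme, which makes NADPH and is both an NRF2 target and a lipogenic gene, was the NRF2-list member that reversed between the times. At 6 h it had 3426, 3113, 2088 and 2288 with 1,2- against 663, 592, 815 and 917 in vehicle rats, and 1155, 1220.2, 1595 and 1226 with 1,4- against 869, 846, 796 and 735. At 24 h it had 1511, 1689.5, 2179.5 and 1889 with 1,2- against 3614, 6375, 6225 and 6363, and 4621, 8145, 11705 and 8971 with 1,4- against 9323, 7889, 4538 and 5223. The 1,2- rats were the highest at 6 h and the lowest at 24 h, with no overlap at either time. The isomer difference was 1.18 (adjusted p = 0.00856) at 6 h and -1.90 (adjusted p = 3.62e-06) at 24 h, and the change between them was -3.07 ± 0.44 (adjusted p = 7.10e-06). With every array of the series in the fit, the 6 h difference was not called (1.18, adjusted p = 0.177). Both Me1 probe sets gave these directions.

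Lipid synthesis genes were among the largest falls at 24 h. Of 19 genes of fatty acid synthesis, 18 fell with 1,2- (median -2.09), where 11.3% of all genes did, 0 passed with 1,4- (5 lower at an unadjusted p under 0.05, median -0.28), and 15 were lower in the difference, where 6.58% of all genes were. Scd, the desaturase that makes monounsaturated fatty acids, had 91.3, 107, 111 and 170.4 with 1,2- against 15104, 21462, 20502 and 24289 in vehicle rats. With 1,4- it had 4105, 16266, 28046 and 23807 against 44143, 29567, 18930.2 and 32754. The 1,2- rats lay far below every other rat, and 1 of the 1,4- rats lay below all vehicle rats. The difference was -6.19 ± 0.69 (adjusted p = 1.36e-10). Fasn, fatty acid synthase, had 762, 1235, 1742 and 1848 with 1,2- against 14583, 23114, 24705 and 29083, and 15149.7, 23254, 33145 and 29901 with 1,4- against 44803, 32281, 31983 and 35227. The difference was -3.50 ± 0.41 (adjusted p = 5.12e-10), and -4.29 on its other probe set. The lipase Pnpla3 (-4.23), pyruvate kinase Pklr (-3.11), acetyl-CoA synthetase Acss2 (-3.03), the phosphatidate phosphatase Lpin1 (-3.02) and citrate lyase Acly (-2.35) fell with 1,2- and were lower than with 1,4-. With hybridisation day as a fixed block Lpin1 missed the threshold (adjusted p = 0.0698). So did the lipid synthesis genes Elovl6 (0.556), Acacb (0.396) and Mlxipl (0.184). Most cholesterol genes fell, with 20 of 21 lower with 1,2- (median -1.62), 0 called with 1,4- (0 at an unadjusted p under 0.05 too, median 0.06) and 18 lower in the difference (median -1.79). With day as a fixed block the differences of Idi1 (adjusted p = 0.0714), Insig1 (0.143), Msmo1 (0.0898), Mvd (0.137), Mvk (0.381) and Sqle (0.185) stayed negative but missed the threshold. Ebp, a sterol isomerase, had 1573, 2442, 2277 and 2394 with 1,2- against 7712, 9421, 7721 and 8172, and 6128, 5722, 5977 and 5038 with 1,4- against 6328, 5461, 6016 and 6015. It had the smallest adjusted p of the list (1.02e-12, difference -1.87), and Cyp51 (-2.61) and lanosterol synthase Lss (-2.30) were among the largest differences. Srebf2, the sterol-sensing factor itself, differed by -0.19 (95% interval -0.65 to 0.28).

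**Figure D4:**
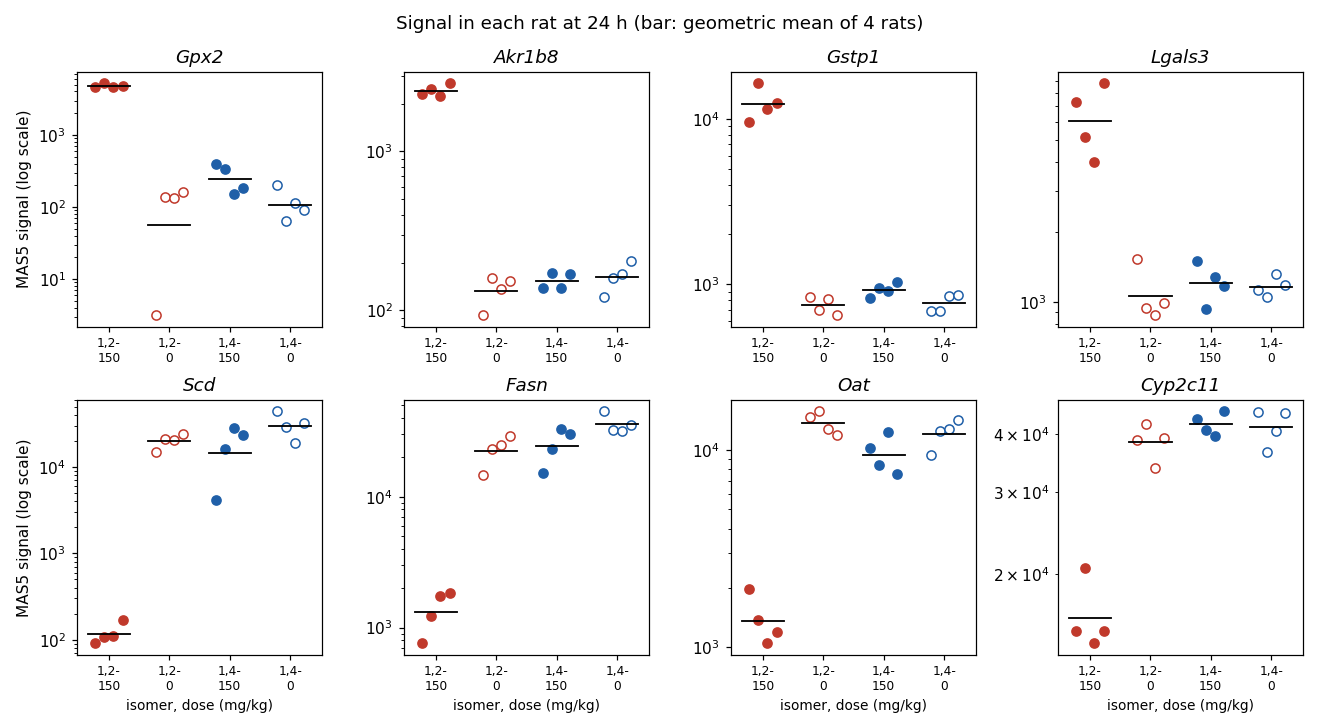
MAS5 signal of 8 genes in each rat at 24 h on a log scale, for rats given 150 mg/kg (filled) and vehicle (open) of 1,2- (red) and 1,4-dichlorobenzene (blue). Bars are geometric means of 4 rats. The 4 rats given 1,2- stand clear of all other rats for each gene, with Scd at 91.3 to 170.4 against 4105 to 28046 in rats given 1,4-.

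Transcripts of some genes of hepatocyte functions other than lipid synthesis also fell with 1,2- at 24 h. Oat, an ornithine-degrading enzyme of pericentral hepatocytes, had 1964, 1373, 1048 and 1199 with 1,2- against 14761, 15717, 12819 and 11927 in vehicle rats, and 10309.6, 8408, 12393 and 7584 with 1,4- against 9432, 12494, 12791 and 14225. The difference was -2.97 ± 0.37 (adjusted p = 4.00e-09), with no overlap. Of 12 pericentral genes 7 were lower with 1,2- in the difference (median -0.85), among them Cyp1a2 (-1.81) and Glul (-1.40), while Cyp2e1, the pericentral oxidase that activates many small solvents, differed by -0.31 (95% interval -0.63 to 0.01). Of 18 urea cycle and amino acid genes 7 were lower, or 4 with hybridisation day as a fixed block. Sds, serine dehydratase, had 514, 281, 149.9 and 179 with 1,2- against 3020.1, 3919, 940.1 and 824, and 3083, 2843, 611 and 875 with 1,4- against 759, 753, 549 and 1051. Signals spread widely within each group, and the difference was -3.67 ± 1.01 (adjusted p = 0.00629). With the 1,4- rats at 15 mg/kg of the shared day in place of the vehicle it was -2.14 (adjusted p = 0.272). Of the 22 genes of bile acid synthesis and transport, 9 were lower and 1 higher. Abcb11, the bile salt export pump, had 1961, 2230.4, 2314 and 1556 with 1,2- against 4878, 6260.2, 5619 and 6776, and 6684 to 8228 with 1,4- against 7979.6 to 9622. Its difference was -1.32 (adjusted p = 6.14e-07), and the uptake carriers Slc10a1 (-1.08) and Slco1a4 (-1.66) were lower too. With hybridisation day as a fixed block Slco1a4 missed the threshold (-1.47, adjusted p = 0.0596).

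Genes that differ between male and female rat liver under growth hormone control moved with 1,2-. Of 21, 11 were lower and 1 higher with 1,2- in the difference (median -0.78). Cyp2c11, a male-specific cytochrome, had 15100.4, 20605, 14219.7 and 15091 with 1,2- against 38954, 42067, 33909.5 and 39302 in vehicle rats, and 43079, 40812, 39745 and 44821 with 1,4- against 44676, 36632, 40679 and 44561. The 1,4- and vehicle rats were alike in range, and the difference was -1.28 (adjusted p = 1.31e-07). The growth hormone receptor Ghr (-1.75) and Igf1 (-0.89) were lower, and the member that was higher was Cyp2c12 (2.26), known as the female-specific form. With day as a fixed block 8 were lower and Cyp2c12 was not called.

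Heat shock chaperones were higher with 1,2- as a group at 24 h, and single metal-binding and macrophage genes were too. All 13 heat shock genes rose with 1,2-, 0 with 1,4- (2 higher at an unadjusted p under 0.05), and 11 were higher in the difference, or 7 with hybridisation day as a fixed block. Hspb1, a small heat shock protein, had 27949, 12126, 11426 and 14387 with 1,2- against 551, 775, 628 and 709 in vehicle rats, and 1261, 1267, 827 and 994 with 1,4- against 569, 880.5, 1202 and 556. The difference was 4.02 ± 0.66 (adjusted p = 2.73e-06). Zfand2a was uneven among the rats given 1,2-, with 9396, 425, 502 and 3133 with 1,2- against 123 to 244, and 176 to 232 with 1,4- against 108 to 229, a difference of 2.78 (adjusted p = 0.00225). Mt2A, a metallothionein that binds zinc and cadmium, had 5573 to 11343 with 1,2- against 617 to 1081, and 754 to 1392 with 1,4- against 456 to 970.0, a difference of 3.13 (adjusted p = 1.05e-06). Its relative Mt1 differed by 0.70 (95% interval -0.49 to 1.89), and of 12 metallothionein, iron and heme genes 3 were higher and 1 lower. The damage-response genes Pvr (2.49), Mdm2 (1.37) and Phlda3 (1.30) were higher with 1,2-, in a p53 list with 6 of 16 higher and 1 lower (3 and 0 with day as a fixed block). Cyclin D1, Ccnd1 (1.72), and the replication helicase subunits Mcm2 (1.55), Mcm3 (1.95) and Mcm6 (1.72) were higher too. Their cell cycle list had 6 of 26 higher and 0 lower (0 lower at an unadjusted p under 0.05). With day as a fixed block Pvr (adjusted p = 0.0596), Phlda3 (0.190), Mcm2 (0.107), Mcm3 (0.0671) and the cell cycle gene Pcna (0.190) missed the threshold. Over all genes 8.64% were higher and 6.58% lower in the difference, the base for the list counts at 24 h.

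Lgals3, a galactose-binding lectin of activated macrophages, had 7301, 5163, 4022 and 8762 with 1,2- against 1527, 941, 876 and 985 in vehicle rats, and 1493, 932, 1277 and 1173 with 1,4- against 1126, 1043, 1313 and 1177. It was higher with 1,2- (2.45, adjusted p = 8.23e-05), as were Gpnmb (2.19) and the lysozyme Lyz2 (1.08), the 3 of 12 macrophage markers that were called. With day as a fixed block 1 of the 12 was called, Gpnmb (adjusted p = 0.0543) and Lyz2 (adjusted p = 0.167) missing the threshold. The summed signal of the 12 markers was 24528 to 38147 with 1,2- against 16691 to 22409 in vehicle rats, and 16235 to 21646 with 1,4- against 15792 to 21416. The resident macrophage markers Clec4f (-0.10), Cd163 (-0.16) and Adgre1 (-0.53) and the general marker Cd68 (0.04) were not called. Of the 7 neutrophil markers only Fcgr3a was called (1.12, and with day as a fixed block an adjusted p of 0.128), and their sum was 832 to 1829 with 1,2- against 455 to 661, and 390.2 to 652 with 1,4- against 410.3 to 728. Fcnb, a ficolin of myeloid cells, was the third-largest rise that the naming rule picked (4.14). Of 14 stellate cell and matrix markers 3 were lower, with Col3a1 at 1034 to 2231 with 1,2- against 4106 to 5100.1, and 4041 to 4682 with 1,4- against 4206 to 4517 (difference -1.36, adjusted p = 6.68e-05), and their sum was 8097 to 8796 with 1,2- against 10929 to 12833, and 10349 to 11305 with 1,4- against 11183 to 12189. Of 12 markers of sinusoidal endothelium 3 were lower, Ptprb (-1.03), Stab1 (-0.69) and Tek (-0.66), and 0 with day as a fixed block by limma (3 at an unadjusted p under 0.05). Their sum was 10989 to 12296 with 1,2- against 10495 to 12570.0, and 14745 to 15774 with 1,4- against 13226 to 14528. Hepatocyte markers summed to 338977 to 418808 with 1,2- against 396335 to 474001, and 453277 to 558761 with 1,4- against 430257 to 556261, with Alb at a difference of 0.19 (95% interval -0.24 to 0.63). The part of these shifts in the other 24 h results was not tested. At 6 h none of the 8 marker lists had a called member in the isomer difference, and 1 gene, a lymphocyte marker, passed an unadjusted p under 0.05.

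Further genes that the rule picked at 24 h were the peptide transporter Slc15a1 (3.21), Ddit4l (2.84) and the interferon-induced Isg15 (2.83) on the higher side, where Ddit4l had 1.76 (adjusted p = 0.264) with day as a fixed block, and Stac3 (-5.56), Nrep (-3.71), the methyltransferase Inmt (-3.66) and the vasopressin receptor Avpr1a (-3.36) on the lower. The aryl hydrocarbon receptor list, whose genes respond to flat polycyclic ligands, held 1 higher and 1 lower gene of 9 at 24 h, Nqo1 and Cyp1a2, and 0 at 6 h (2 higher at an unadjusted p under 0.05). Cyp1a1, its classical target, differed by -0.95 at 6 h (95% interval -2.69 to 0.80) and 0.20 at 24 h (95% interval -1.54 to 1.94). Among 9 oxidases that can activate haloarenes, 0 were called at 6 h (1 lower at an unadjusted p under 0.05) and 2 were lower at 24 h, Cyp1a2 and Fmo1 (-2.11).

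The differences at the 2 times overlapped in 409 genes, 31.3% of those called at 6 h and 18.9% of those at 24 h. Of the 409, 199 were higher and 168 lower with 1,2- at both times, and 42 changed direction. Those higher at 6 h and lower at 24 h were led by Me1, the cyclic AMP-responsive factor Crem (1.65 and -1.09), the tubulin Tubb2a (1.01 and -0.70), Yeats4 (0.57 and -0.72) and Rhou (0.53 and -0.69), and those lower and then higher by Mcm3 (-2.28 and 1.95), the interferon-inducible GTPases Igtp (-1.35 and 1.12) and Irgm (-0.87 and 0.95), Cnp (-0.90 and 1.11) and Acbd4 (-1.21 and 0.69). With hybridisation day as a fixed block the 24 h call was lost for 6 of these 10 genes, Tubb2a (adjusted p = 0.290), Yeats4 (0.125), Rhou (0.0540), Mcm3 (0.0671), Acbd4 (0.283) and Irgm (0.0512). Rhou lost its 6 h call under that setting as well (adjusted p = 0.0733). Without the 2 vehicle arrays with few dim probe sets, the 6 h calls of Cnp (adjusted p = 0.0550) and Irgm (0.0890) were lost. Tested directly, the isomer difference changed between the times in 691 genes (4.86%), 449 upward (3.16%) and 242 downward (1.7%), and in 190 and 275 with arrays centred on their median. Among the genes shown above, Egr1 moved downward (-4.01, adjusted p = 0.0183), Scd (-6.21, adjusted p = 2.45e-05) and Oat (-3.01, adjusted p = 0.000150) too, and Gpx2 (3.39, adjusted p = 0.0283), Hspb1 (3.33, adjusted p = 0.0222) and Mt2A (3.11, adjusted p = 0.00305) upward. Txnrd1 (0.21), Gclm (-0.03), Srxn1 (-0.24) and Glul (-0.15) were not called for that change.

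The same contrasts at the doses on either side are given as values only, since the 3 doses share their vehicle rats. At 15, 150 and 1500 mg/kg the isomer difference held 20, 1308 and 820 genes at 6 h, and 0, 2164 and 3020 at 24 h, the 0 being limma calls with 755 genes at an unadjusted p under 0.05. The 1,2- isomer changed 10, 2607 and 2511 genes at 6 h and the 1,4- isomer 171, 199 and 829, the 1,4- counts all being against the vehicle group that holds the 2 arrays with few dim probe sets. The 1,2- isomer changed 0, 3945 and 6562 genes at 24 h (1127 at an unadjusted p under 0.05 at 15 mg/kg) and the 1,4- isomer 0, 6 and 4236 (510 at 15 mg/kg). Scd at 24 h had changes of -0.39, -7.24 and -7.86 with 1,2-, and -0.36, -1.04 and -6.97 with 1,4-. Gstp1 at 24 h had 0.30, 4.01 and 4.43 with 1,2-, and -0.13, 0.26 and 3.37 with 1,4-. Oat had -0.40, -3.32 and -2.27 with 1,2-, and -0.21, -0.35 and -3.51 with 1,4-. At 6 h, Zfand2a had 0.40, 5.27 and 5.61 with 1,2-, and 0.31, 0.59 and 1.34 with 1,4-, and Cyp7a1 had -0.31, -2.93 and -2.85 with 1,2-, and 0.27, 0.53 and 0.32 with 1,4-. Among the genes shown by rat, Akr7a3 at 6 h was the one called for the isomers at 15 mg/kg, with changes of 2.45 with 1,2- and 0.21 with 1,4- (difference 2.24, adjusted p = 0.0489).

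**Figure D5:**
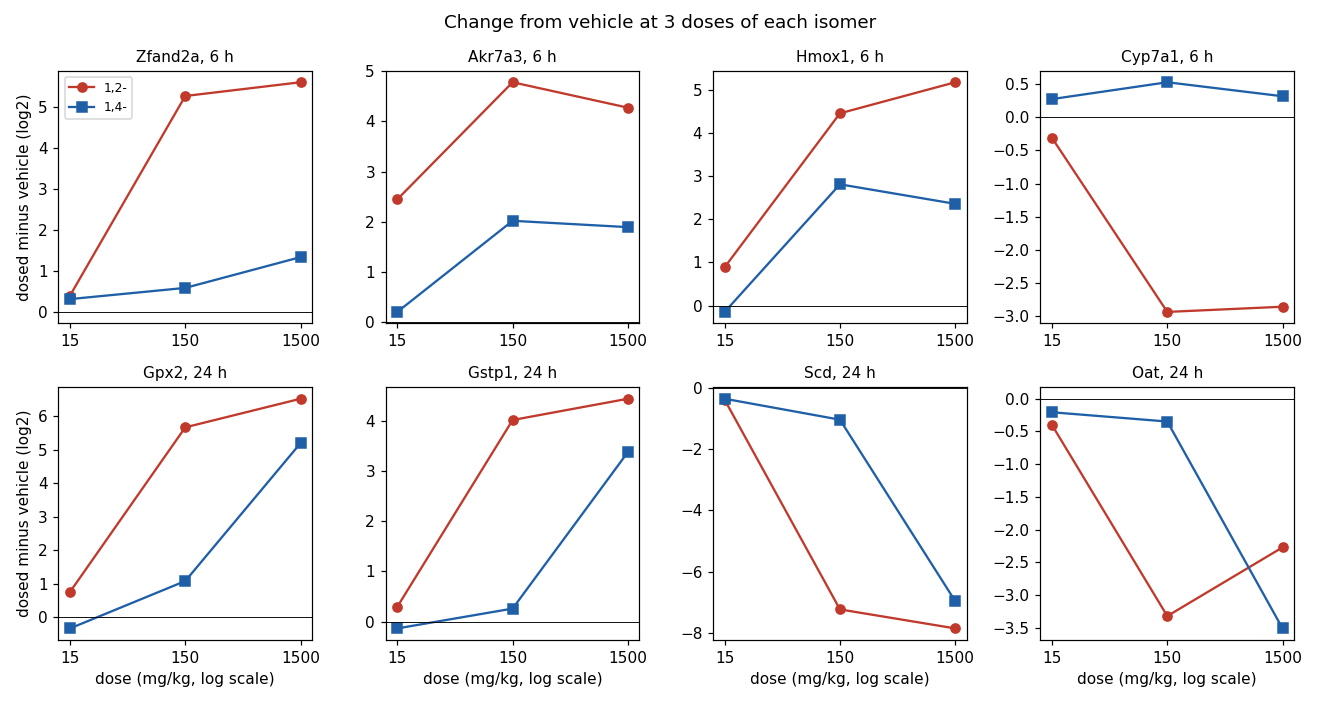
Change from vehicle in log2(signal + 16) at 15, 150 and 1500 mg/kg (log scale) of 1,2- (red circles) and 1,4-dichlorobenzene (blue squares) for 4 genes at 6 h (top) and 4 at 24 h (bottom), each point a difference of means of 4 rats each. The lines part most at 150 mg/kg for Scd at 24 h, at -7.24 with 1,2- and -1.04 with 1,4-.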

How the data were processed

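Liver RNA of each rat was hybridised to 1 Affymetrix rat array, and the authors deposited a table of probe set values on the log2 scale, which were MAS5 signals with a trimmed mean of 500 per array (2% trimmed at each end). The MAS5 version was not given in the sources used here. Of 31099 probe sets, 57 were controls, 20832 had 1 gene symbol, 436 several and 9780 none. Signals were recovered from the deposited log2 values, and log2(signal + 16) was tested. Each of 14217 genes was represented by the brightest of its probe sets on average, 4525 genes having several. The 94 dichlorobenzene arrays were fitted in 24 groups with limma 3.58.1 (R 4.3.3, with the data.table package, version 1.17.8), leaving 70 residual degrees of freedom, with Benjamini-Hochberg adjustment. The number of rats limits the precision. The scripts were tested on simulated data. Named genes were, per time, the 10 largest differences in each direction among called genes of at least 1 (log2) and a group mean of at least 7 whose dosed rats did not overlap between isomers after subtracting vehicle means, then members of 31 lists (23 pathways and 8 cell type markers) and, chosen after their values were seen, leading genes of each class. Members and lists were chosen with earlier results of these data known. The alternatives were other scalings, pseudocounts, filters, sample sets, hybridisation day, and leaving out each rat.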

Additional observations from a re-analysis of the deposited data

Results flagged for a closer look

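Among 156 gene and group combinations of 4 rats, 8 held a rat far from the other 3, where chance gives about 1 in 20. In 1,2- vehicle rats at 6 h, 1 rat had Atf3 at 97.9 (others 38.3 to 43.5) and Maff at 84.0 (others 7.17 to 13.8). In rats given 1,4- at 6 h, 1 had Egr1 at 207 (others 429 to 437) and 1 had Me1 at 1595 (others 1155 to 1226). In rats given 1,2- at 6 h, rat 3 had Cyp7a1 at 4412 (others 474 to 1089), and at 24 h 1 rat had Cyp2c11 at 20605 (others 14219.7 to 15100.4). In 1,2- vehicle rats at 24 h, Lgals3 reached 1527 in 1 rat (others 876 to 985) and Me1 was 3614 in 1 (others 6225 to 6375).

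The isomer difference changed between 6 and 24 h, tested directly in limma, in 15 of the genes shown by rat. It moved downward for Egr1 (-4.01), Me1 (-3.07), Scd (-6.21), Fasn (-2.25), Ebp (-1.42, adjusted p = 0.000192), Sds (-4.89, adjusted p = 0.0308), Oat (-3.01), Abcb11 (-0.93, adjusted p = 0.0384) and Cyp2c11 (-0.91, adjusted p = 0.0246). It moved upward for Gpx2 (3.39), Gstp1 (2.20, adjusted p = 0.0135), Cbr1 (1.30, adjusted p = 0.0295), Hspb1 (3.33), Mt2A (3.11) and Lgals3 (2.13, adjusted p = 0.0496). Over all genes, 154 were called for this change with hybridisation day as a fixed block, against 691 without it.

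At 48 h, a time outside the comparisons above, 150 mg/kg gave 127 genes called for the isomer difference (88 higher and 39 lower with 1,2-, 0.893% of genes). Gstp1 (2.62), Lgals3 (2.01) and Cbr1 (1.06) were higher with 1,2- and Oat (-1.42) lower.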

How the results depend on the processing

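No call among 62 named results turned round in sign under any alternative run. Differences that were not called could do so, as for Scd at 6 h without rat 3 (-0.25). The balance of higher and lower calls turned round with arrays centred on their median for 1,2- at 6 and 24 h. It also turned round for the isomer difference at both times, for 1,4- at 6 h and for the change between times. The total counts for 1,2- stayed within 1.5 times their values under all alternatives, from 1771 to 3053 at 6 h when 1 rat was left out. The isomer difference at 6 h (1308 genes) held 560 with only the 4 groups of the time fitted, 679 with every array of the series in the fit, 733 with the 1,4- rats of the shared day, 469 with 1,4- at 15 mg/kg as its reference and 692 without the 2 vehicle arrays with few dim probe sets. At 24 h (2164 genes) it held 1411 with the whole series and 1123 with day as a fixed block. The 1,4- change at 6 h (199 genes) held 302 after centring, 89 in the brighter genes, 343 with a pseudocount of 64, 28 with only the 4 groups, 98 with the whole series, 95 with day as a fixed block, 95 with the shared day, 3 against 15 mg/kg and 23 without the 2 arrays. The 1,4- change at 24 h (6 genes) held 0 with day as a fixed block by limma (482 at an unadjusted p under 0.05) and 1 against 15 mg/kg. The change between times (691 genes) held 214 with the whole series and 154 with day as a fixed block. Leaving out 1 rat gave 814 (without 1,2- dosed rat 1) to 1957 (without 1,2- dosed rat 3) at 6 h, 1828 to 2182 at 24 h, 62 (without 1,4- vehicle rat 1) to 270 (without 1,4- vehicle rat 3) for 1,4- at 6 h, 5 to 7 for 1,4- at 24 h, 3438 to 3951 for 1,2- at 24 h and 509 to 954 for the change between times. Mean necrosis differences were 0.667 to 1 at 6 h and 1.67 to 2.33 at 24 h. Where calls were lost the cause was not tested. Of 62 named results, 11 lost their call with only the 4 groups of the time fitted, among them Atf3 (adjusted p = 0.0593), Maff (0.0627) and Ddit3 (0.0639), 12 against 15 mg/kg and 5 with day as a fixed block. With day as a fixed block, 842 of 918 genes called at 6 h and 1077 of 1123 at 24 h were called without it too, and the median standard error was 0.364 and 0.438, against 0.334. No paired analysis was possible because the labels give no replicate numbers, so numbers only name rats. Genes near or under a signal of 16 have changes limited by the added 16.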

Other observations

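Different members of the circadian clock were called for the isomers at the 2 times. At 6 h the activators Bmal1 (1.36) and Clock (1.03) were higher with 1,2- and the output factor Hlf (-1.52) lower. Bmal1 missed the threshold with hybridisation day as a fixed block (1.03, adjusted p = 0.0505). It also did so without the 2 vehicle arrays with few dim probe sets (1.03, adjusted p = 0.0670). At 24 h the repressor Per2 (1.35), the output factor Dbp (1.73) and Bhlhe41 (2.13) were higher, and Npas2 (-2.34) and Nfil3 (-0.93) lower. Called members of the 16 were 3 at 6 h and 5 at 24 h, where 9.2% and 15.2% of all genes were called. With hybridisation day as a fixed block 0 were called at 24 h by limma (2 higher and 3 lower at an unadjusted p under 0.05). A call at either time alone does not show a change between the times.

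Sulfur amino acid enzymes were called in both directions. At 24 h both subunits of glutathione synthesis, Gclc (1.48) and Gclm (1.38), and glutathione reductase Gsr (0.88) were higher with 1,2-, while 8 of 19 genes of the list were lower, including Mat1a (-0.80), which makes S-adenosylmethionine, Cbs (-0.97) and Cth (-0.86), which turn homocysteine into cysteine, and Csad (-1.43), which makes taurine. With hybridisation day as a fixed block 2 were higher and 4 lower, and Gsr (adjusted p = 0.0606), Mat1a (0.0821) and Cth (0.251) were not called. Of 25 cytokines, chemokines and adhesion molecules at 24 h, Ccl7 (2.79), Sele (1.72) and Il1a (0.83) were higher with 1,2- and Cxcl12 (-1.18) lower, where 8.64% of all genes were higher and 6.58% lower. With arrays centred on their median 1 was higher and 1 lower, and with day as a fixed block 0 were higher by limma (7 at an unadjusted p under 0.05) and 1 lower.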
